A study of Mus musculus with 4 samples.

Results

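The genes described here were the small nucleolar RNAs (snoRNAs), the small Cajal body RNAs and the transcripts that host them, 138 of the 36846 gene symbols in the deposited table. Membership was set by the gene's name, and the group was picked with earlier results of these data known. Symbols that begin with Snora and a number made up the box H/ACA class (38 members), those with Snord the box C/D class (76), those with Scarna the Cajal body class (9), and those with Snhg, together with Gas5, the host transcripts (15). The sequenced RNA came from MEFs (mouse embryonic fibroblasts), the mixed connective tissue cells grown from a dissociated embryo. One genotype was Dnmt3l knockout (Dnmt3l-KO) and the other wild type (WT), with 2 libraries of each. Per the labels, every library came from C57BL/6 fibroblasts at passage 4, grown from embryos of day 13.5 to 14.5 that crosses between Dnmt3l heterozygotes had produced, so both genotypes had heterozygous parents and no library had a further treatment. The study's stated purpose was to look for genes behind the better development of cloned embryos made from the knockout cells. Whether the 2 libraries of each genotype stem from different embryos or lines is not stated in the labels, and the p-values then measure only how far these libraries differ, which may be technical. DNMT3L is a partner of the de novo DNA methyltransferases that has no methyltransferase activity of its own. Its RNA was close to undetected in both genotypes, with 0 counts in each Dnmt3l-KO library, against 6 and 1 counts in the WT libraries, so it gave only a weak check of the labels.

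Small nucleolar RNAs guide chemical modification of other RNAs, chiefly ribosomal RNA. Box H/ACA RNAs sit in a particle with dyskerin and direct the change of uridine to pseudouridine, and box C/D RNAs sit in a particle with fibrillarin and direct methylation of the ribose. A few members of each family instead help to cut the ribosomal RNA precursor. Small Cajal body RNAs do the same kind of work on spliceosomal RNAs. In mammals most of these RNAs are not transcribed on their own: they lie in introns of a host gene and are trimmed from the excised intron. Some hosts encode ribosomal or other proteins, while the Snhg genes and Gas5 mostly make spliced transcripts without a conserved protein, many of which are degraded when ribosomes reach an early stop codon.

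The sequences of 3 H/ACA and 3 C/D RNAs with many counts are printed here so that the features of each class, and the likeness of Snora73a and Snora73b, can be seen. They are the GENCODE M21 transcripts on GRCm38, the build that the submitters' mm10 names, written 5′ to 3′ as DNA. Capitals mark the ACA box that stands 3 bases before the end of an H/ACA RNA, and the TGATGA box near the start and the CTGA box near the end of a C/D RNA.
Snora73a (chr4:132352775-132352979, minus strand): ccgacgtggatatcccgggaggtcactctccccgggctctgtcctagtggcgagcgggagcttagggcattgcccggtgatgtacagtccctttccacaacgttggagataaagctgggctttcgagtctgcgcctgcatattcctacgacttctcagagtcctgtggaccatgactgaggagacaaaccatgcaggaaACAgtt
Snora73b (chr4:132352322-132352526, minus strand): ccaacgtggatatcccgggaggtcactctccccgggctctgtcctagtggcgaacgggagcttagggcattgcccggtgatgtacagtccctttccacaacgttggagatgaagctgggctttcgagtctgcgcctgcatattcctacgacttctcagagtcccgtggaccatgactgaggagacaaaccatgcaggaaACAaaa
Snora78 (chr17:24719676-24719803, minus strand): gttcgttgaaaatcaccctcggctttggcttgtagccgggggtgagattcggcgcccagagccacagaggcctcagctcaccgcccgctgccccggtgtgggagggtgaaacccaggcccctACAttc
Snord15a (chr7:99482785-99482932, minus strand): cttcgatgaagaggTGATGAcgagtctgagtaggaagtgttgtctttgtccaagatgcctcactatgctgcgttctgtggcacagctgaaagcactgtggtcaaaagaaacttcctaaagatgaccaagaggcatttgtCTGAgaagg
Snord15b (chr7:99479563-99479707, minus strand): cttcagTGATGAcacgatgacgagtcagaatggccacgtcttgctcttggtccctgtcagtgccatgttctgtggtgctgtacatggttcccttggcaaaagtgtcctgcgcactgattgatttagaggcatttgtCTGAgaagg
Snord17 (chr2:144265979-144266216, minus strand): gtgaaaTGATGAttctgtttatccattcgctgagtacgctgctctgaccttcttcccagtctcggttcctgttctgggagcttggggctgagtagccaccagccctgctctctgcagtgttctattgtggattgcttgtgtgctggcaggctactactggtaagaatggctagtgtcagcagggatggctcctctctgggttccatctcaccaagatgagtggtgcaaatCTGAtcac
Snora73a and Snora73b, the U17 RNAs, help to cut the ribosomal RNA precursor. Both are 205 bases long and match at 198 positions (96.6%), differing at 7, so reads from one can be assigned to the other. The boxes were searched on the RNA strand only. ACA followed by 3 final bases was found in 34 of the 40 GENCODE sequences named Snora (85.0%) and in 0 of the 98 named Snord. TGATGA before the midpoint was found in 0 of the Snora and 73 of the Snord sequences (74.5%), and CTGA starting in the last 20 bases in 4 (10.0%) and 96 (98.0%).

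Whether a small RNA was seen at all in these libraries went with its annotated length. Of the 123 small RNAs, 40 had a count in some library and 83 were at 0 in all 4. Among the 79 small RNAs of at most 100 bases, 1 had a count, Snora68, with 0 and 4 counts in Dnmt3l-KO and 3 and 7 in WT. Of the 35 members of 101 to 150 bases 31 had a count, and so did 8 of the 9 members of 151 to 300 bases, Snora23 being the one at 0. Box C/D RNAs are the shorter class, with a median of 68 bases and a range of 28 to 221. These lengths are RefSeq spans, which differ from the GENCODE sequences printed above for Snord17 (221 against 238 bases) and Snora78 (157 against 128). All 71 C/D members of at most 100 bases were at 0 in every library, while all 5 longer ones, Snord15a, Snord15b, Snord17, Snord22 and Snord118, had counts. The box H/ACA members had a median of 120.5 bases, and 30 of the 38 had a count. A count of 0 allows up to 3 counts, which came to 0.0601 to 0.0719 CPM per library (a count over the TMM-scaled size of its library), and such limits cover counting error only. These lengths are those of the annotated entries, and whether each entry holds the whole RNA was not checked. The data therefore describe mostly the members with long entries, and nothing can be said of the members of any class that were at 0.

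**Figure D1:**
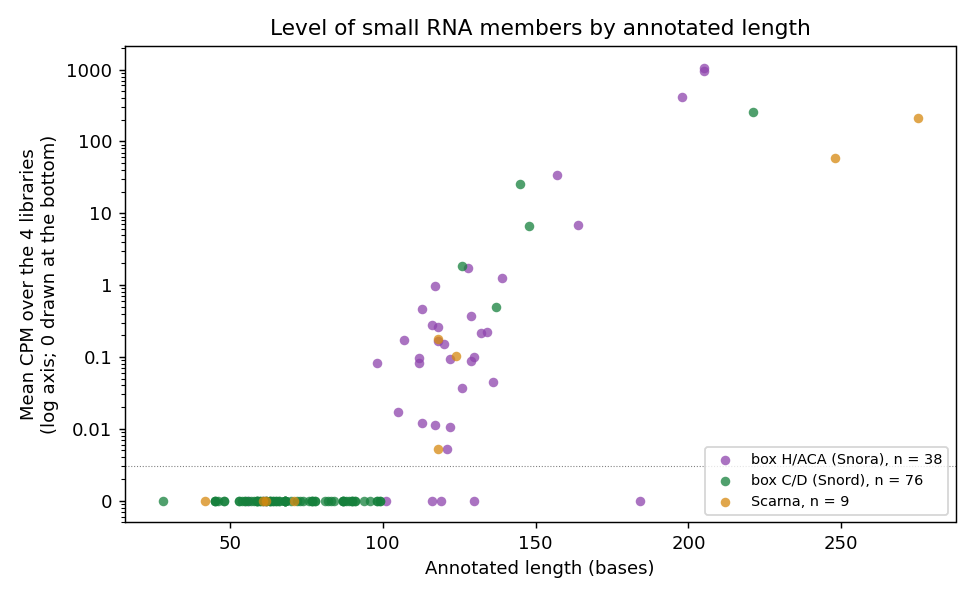
Mean CPM over the 4 libraries (log axis, 0 at the bottom) against annotated length in bases for the 123 small RNAs, coloured by class. The 79 members of at most 100 bases lie at 0 but for Snora68, and the members of 151 to 300 bases reach 1065 CPM.

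The 138 members were then compared between the genotypes in a fit over the whole table. After a filter on low counts 35 members were tested, 13 box H/ACA, 5 box C/D, 3 Scarna and 14 host transcripts. In edgeR (quasi-likelihood test, Benjamini-Hochberg adjustment) 0 of the 35 had an adjusted p under 0.05, against 3 of the 14760 genes tested (0.0203%). At an unadjusted p under 0.05, 9 of the 21 small RNAs tested were lower in Dnmt3l-KO and 0 higher, and 2 hosts were lower and 1 higher, where 1.81% of all genes tested were lower and 2.34% higher. Both Dnmt3l-KO libraries lay below both WT libraries for 16 of the 21 small RNAs and above them for 0, and for 7 and 2 of the 14 hosts, where 16.5% of all genes tested lay below and 16.2% above. The fitted log2 fold change was negative for 20 of the 21 small RNAs and 11 of the 14 hosts and positive for 1 and 3, where 48.7% of all genes tested were negative and 51.3% positive. The median log2 fold change, Dnmt3l-KO over WT, was -0.97 for box H/ACA, -0.77 for box C/D, -0.60 for Scarna and -0.18 for the hosts, beside 0.0062 over all genes tested. These counts describe the members tested and are not independent support, because 3 H/ACA members and 1 Scarna passed the filter only through their WT libraries and 1 host, Snhg9, only through its Dnmt3l-KO libraries. Over every small RNA with a count, tested or not, the mean CPM was lower in Dnmt3l-KO than in WT for 37 of 40 and higher for 3, Snora33, Snora44 and Snora81. The same share over all genes with a count was not computed. Some of these members, such as Snora26 and Snora28, had only 1 or 2 counts in all. Snora44 had 0 and 1 counts in Dnmt3l-KO and 1 and 0 in WT, so its sign rests on library scaling alone.

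**Figure D2:**
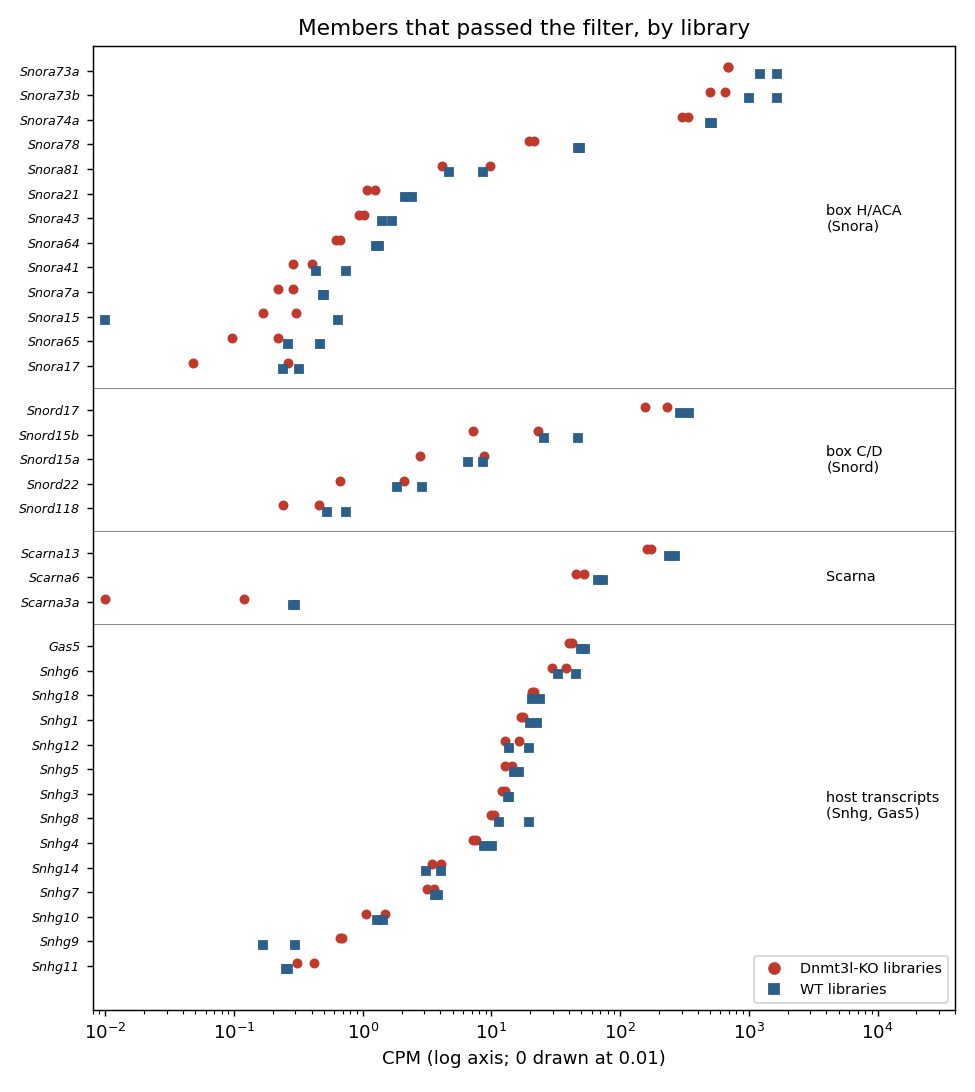
CPM in each library (log axis, 0 drawn at 0.01) of the 35 members tested, grouped by class, with Dnmt3l-KO libraries as circles and WT libraries as squares. In 16 of the 21 small RNAs both circles lie left of both squares, and in Snhg9 and Snhg11 both lie right of them.

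The box H/ACA members with the highest counts were lower in both knockout libraries. Snora73a had 686.7 and 685.6 CPM in Dnmt3l-KO, against 1665 and 1224 CPM in WT. The 2 knockout libraries were almost equal, while the WT libraries lay apart from each other and both above them. Its log2 fold change was -1.07 ± 0.18 (SE), with an adjusted p of 0.966 (edgeR quasi-likelihood). Snora73b had 650.4 and 496.1 CPM in Dnmt3l-KO, against 1646 and 996.1 CPM in WT, a log2 fold change of -1.20 ± 0.29 (edgeR, adjusted p = 0.999). Here the knockout libraries also lay below the WT libraries, and the WT pair spanned the wider range. Snora74a, the U19 RNA, had 337.0 and 304.7 CPM in Dnmt3l-KO, against 498.5 and 518.7 CPM in WT. Replicates of each genotype lay close together and the groups did not overlap, with a log2 fold change of -0.66 ± 0.11 (edgeR, adjusted p = 0.966). Snora73a held 43.0% of the H/ACA counts, Snora73b 38.3% and Snora74a 16.8%. On the scale of the deposited FPKM, which divides by length, Snora73a stood at 3036 and 3161 in Dnmt3l-KO and at 6975 and 5610 in WT.

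Snora78, an H/ACA RNA with far fewer counts, had the smallest p of all members. It had 19.5 and 21.4 CPM in Dnmt3l-KO, against 49.1 and 47.3 CPM in WT. The libraries of each genotype lay close together, and the groups did not overlap. Its log2 fold change was -1.24 ± 0.10 (edgeR, adjusted p = 0.197). Of the 13 H/ACA members tested, 10 had both knockout libraries below both WT libraries and 0 had both above. Of all genes tested, 16.5% lay below and 16.2% above. Of these 10 members 6 had low counts, and Snora7a and Snora65 among them passed the filter only through their WT libraries. Snora21, encoded in Rpl23, had 1.08 and 1.24 CPM in Dnmt3l-KO, against 2.42 and 2.13 CPM in WT (log2 fold change -0.97 ± 0.28, edgeR, adjusted p = 0.999). Snora64, in an intron of Rps2, had 0.661 and 0.622 CPM in Dnmt3l-KO, against 1.27 and 1.34 CPM in WT (log2 fold change -1.02 ± 0.32, edgeR, adjusted p = 0.999). Snora7a had 11 and 12 counts in Dnmt3l-KO, against 23 and 21 in WT. In Snora43, Snora65 and Snora41 the knockout libraries were also the lower ones, with log2 fold changes of -0.67 to -1.18 (edgeR, adjusted p = 0.999 each). The groups overlapped in the last 3 H/ACA members tested. Snora81, encoded in Eif4a2, had 9.76 and 4.16 CPM in Dnmt3l-KO, against 8.54 and 4.65 CPM in WT, and its log2 fold change was 0.08 ± 0.50. Snora17 had 13 and 2 counts in Dnmt3l-KO and 15 and 10 in WT. Snora15 had 15 and 7 counts in Dnmt3l-KO and 0 and 27 in WT, so its sign rested on a single library.

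The 5 box C/D members with counts had lower means in Dnmt3l-KO, but they varied more between the 2 knockout libraries than H/ACA members did. Snord17, which held 88.1% of the C/D counts, had 232.2 and 156.0 CPM in Dnmt3l-KO, against 340.7 and 291.2 CPM in WT. Its groups did not overlap, with a log2 fold change of -0.70 ± 0.22 (edgeR, adjusted p = 0.999). Snord15b, from an intron of Rps3, had 22.8 and 7.13 CPM in Dnmt3l-KO, against 46.9 and 25.5 CPM in WT (log2 fold change -1.27 ± 0.60, edgeR, adjusted p = 0.999). Its neighbour in the same gene, Snord15a, had 8.70 and 2.80 CPM in Dnmt3l-KO, against 8.58 and 6.52 CPM in WT, and the highest value of the 4 was a knockout library. Snord118, the U8 RNA that human and frog cells need to mature the large ribosomal subunit RNAs, had 23 and 10 counts in Dnmt3l-KO, against 25 and 31 in WT. Snord22, encoded in Snhg1, had 104 and 28 counts in Dnmt3l-KO, against 136 and 77 in WT. In all 5 the second knockout library was lower than the first, by a median log2 difference of -1.64, and in WT 4 of 5 were lower in the second library, with a median of -0.40. The H/ACA median of that replicate difference was -0.14 in Dnmt3l-KO and -0.34 in WT over 12 members. The C/D median fold change was -0.77 with all libraries, -1.43 without the first Dnmt3l-KO library and -0.45 without the second, so its size depended on the knockout library used.

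Among the Cajal body RNAs, the 2 with many counts were lower in both knockout libraries by a smaller amount. Scarna13, from Snhg10, had 174.7 and 161.4 CPM in Dnmt3l-KO, against 268.4 and 241.0 CPM in WT. The groups did not overlap, and the log2 fold change was -0.60 ± 0.11 (edgeR, adjusted p = 0.999). Scarna6, from Atg16l1, had 52.4 and 45.2 CPM in Dnmt3l-KO, against 67.2 and 73.7 CPM in WT. This was a log2 fold change of -0.53 ± 0.12 (edgeR, adjusted p = 0.999), again without overlap. Scarna3a had 0 and 5 counts in Dnmt3l-KO, against 14 and 12 in WT, and Scarna3b had 0 and 3 counts in Dnmt3l-KO, against 7 and 8 in WT. Scarna8 had 1 count in all, in a WT library, and the other 4 members were at 0 in every library.

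The host transcripts had log2 fold changes from -0.61 to 1.52. Gas5, a host of several C/D RNAs that was first found in growth-arrested cells, had 40.0 and 42.5 CPM in Dnmt3l-KO, against 52.9 and 49.8 CPM in WT. The groups did not overlap, with a log2 fold change of -0.32 ± 0.10 (edgeR, adjusted p = 0.999). Snhg1, which hosts Snord22 and other C/D RNAs, had 17.0 and 17.6 CPM in Dnmt3l-KO, against 22.47 and 19.96 CPM in WT (log2 fold change -0.29 ± 0.11, edgeR, adjusted p = 0.999). Snhg4 had 7.55 and 7.13 CPM in Dnmt3l-KO, against 10.1 and 8.79 CPM in WT, a log2 fold change of -0.37 ± 0.15 (edgeR, adjusted p = 0.999). Snhg8 had 10.4 and 9.90 CPM in Dnmt3l-KO, against 19.4 and 11.4 CPM in WT. Its knockout libraries were the lower ones, but the first WT library alone stood far above the rest. Snhg3, the host of Snora73a and Snora73b, had 12.1 and 12.6 CPM in Dnmt3l-KO, against 13.4 and 13.6 CPM in WT (log2 fold change -0.13 ± 0.11, edgeR, adjusted p = 0.999). Snhg5 and Snhg7 also lay lower in both knockout libraries, with log2 fold changes of -0.20 and -0.15. Snhg6 had 38.0 and 29.3 CPM in Dnmt3l-KO, against 45.7 and 33.0 CPM in WT, and Snhg18 had 21.6 and 20.7 CPM in Dnmt3l-KO, against 23.7 and 20.8 CPM in WT. The groups overlapped in Snhg6, Snhg10, Snhg12, Snhg14 and Snhg18, whose log2 fold changes ran from -0.23 to 0.09.

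Snhg9 stood on the other side, higher in both knockout libraries. It had 33 and 29 counts in Dnmt3l-KO, against 14 and 7 in WT, which was 0.661 and 0.694 CPM in Dnmt3l-KO, against 0.297 and 0.168 CPM in WT. The groups did not overlap, and the log2 fold change was 1.52 ± 0.47 (edgeR, adjusted p = 0.999). Snora78 lies within the span of Snhg9 on chromosome 17, on the minus strand, and both lie inside the span of Rps2, which is transcribed from the plus strand. No source used here gives the strand setting of the counting, so reads from Snora78, Snhg9 and Rps2 in that stretch may have been exchanged. Snhg11 had 21 and 13 counts in Dnmt3l-KO, against 12 and 11 in WT, and Snhg7os, which was not tested, 9 and 8 counts in Dnmt3l-KO, against 4 and 8 in WT.

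**Figure D3:**
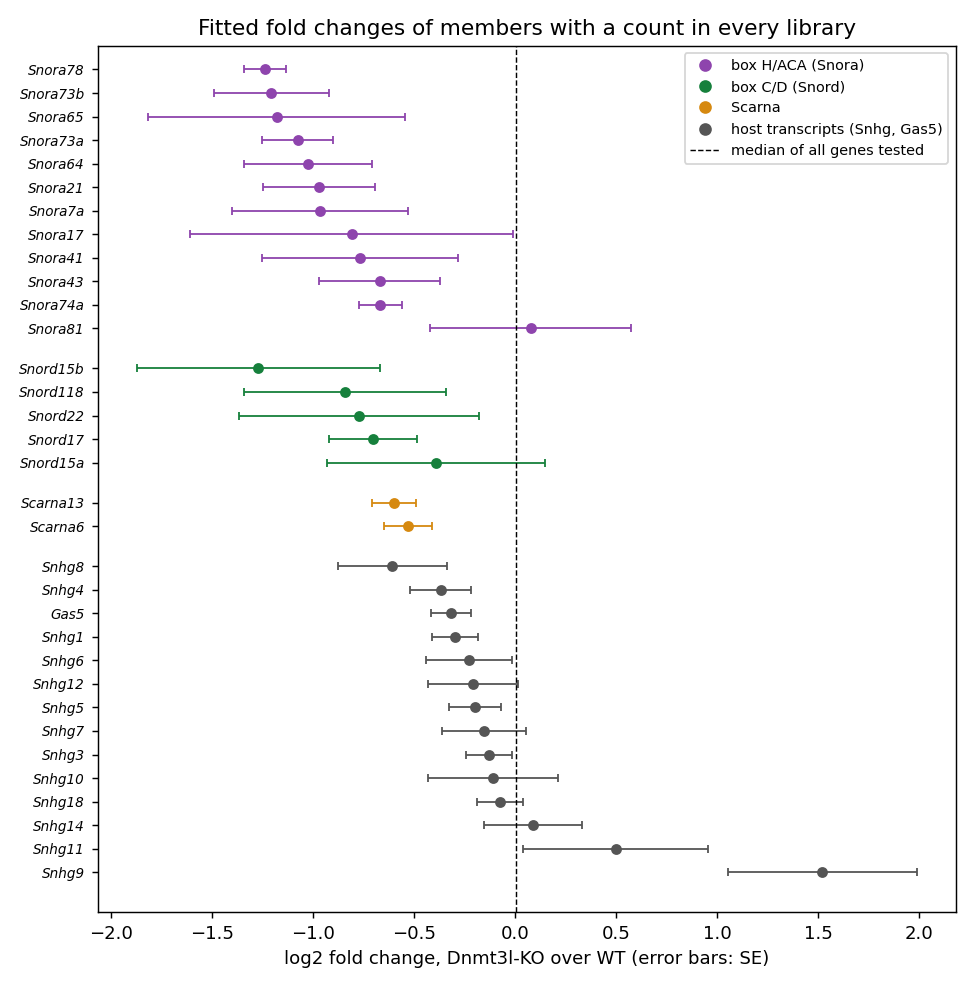
Fitted log2 fold change, Dnmt3l-KO over WT, with its SE for the 33 tested members that had a count in every library, coloured by class; the dashed line is the median of all genes tested. Of the H/ACA members only Snora81, at 0.08, lies right of the line. The hosts run from -0.61 in Snhg8 to 1.52 in Snhg9, with a median of -0.18 and 11 of 14 below 0.

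Summed over every member, each class was lower in both knockout libraries than in both WT libraries. The H/ACA sum averaged 1613 ± 136 CPM in Dnmt3l-KO and 3338 ± 763 CPM in WT (SD, n = 2 each), a ratio of 0.483. Box C/D RNAs summed to 216.5 ± 70.3 CPM in Dnmt3l-KO and 362.7 ± 52.2 CPM in WT, a ratio of 0.597, and Scarna RNAs to 217.0 ± 14.4 CPM in Dnmt3l-KO and 325.6 ± 14.7 CPM in WT, a ratio of 0.666. For the hosts the sums were 181.0 ± 1.53 CPM in Dnmt3l-KO and 214.2 ± 26.2 CPM in WT, a ratio of 0.845. With 2 libraries against 2 an exact permutation test cannot give a two-sided p below 0.333, so the sums are given as a description with no test. Without Snora73a and Snora73b the small RNAs summed to 864.8 and 708.6 CPM in Dnmt3l-KO, against 1301 and 1220 CPM in WT, a ratio of 0.624. The log2 ratio of the host sums was -0.24 with all libraries, -0.11 without the first WT library and -0.36 without the second. In such bulk samples, fewer cells that make an RNA and less of it per cell cannot be told apart.

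**Figure D4:**
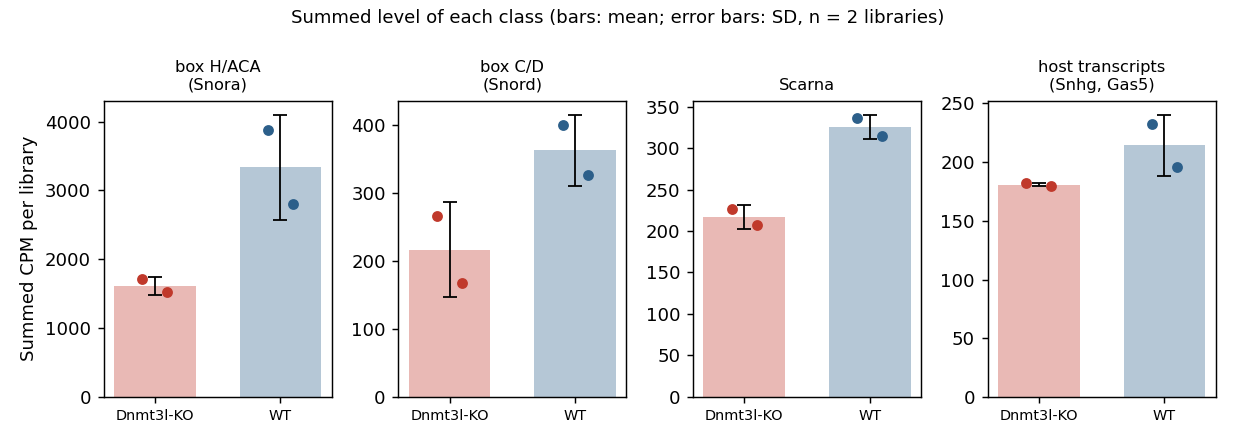
Summed CPM of each class in each library (points), with the mean (bar) and SD (error bar) of the 2 libraries of each genotype, Dnmt3l-KO left of WT, each panel on its own axis from 0. Every knockout point lies below both WT points, with the smallest gap in the hosts, at 182.0 CPM in a Dnmt3l-KO library against 195.7 CPM in a WT library.

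Because most small RNAs are cut from a host, the tested ones were set against the gene that holds them where both were tested and the small RNA had a count in every library. This left out Snora15 and Scarna3a, each at 0 in a library, and Snord118, for which no host was found, and gave 20 pairs on the same strand, of 18 small RNAs and 16 hosts. Hosts in GENCODE whose symbols are not in the deposited table were not used. Snora73a and Snora73b lie in both Snhg3 and Rcc1, and Snhg4 was paired with Snora74a by position alone. The log2 ratio of small RNA to host was lower in both knockout libraries than in both WT libraries for 14 of the 20 pairs and higher for 0, with a median difference of -0.71. For single genes tested, 16.5% lay below and 16.2% above; the share for ratios of other genes was not computed. The pairs hold Snora7a, Snora17 and Snora65, which passed the filter only through WT, and Snhg9, which passed only through Dnmt3l-KO, so the count and the median describe these pairs and support nothing further. Pairs that share a member are not independent, and no pair can reach an exact permutation p below 0.333. For Snora73a the difference was -0.93 against Snhg3 and -0.90 against Rcc1, a nuclear exchange factor for Ran, which itself had 32.2 and 32.1 CPM in Dnmt3l-KO, against 36.5 and 35.1 CPM in WT. Snora73a overlaps an annotated exon of Snhg3, Snora7a one of Rpl32 and Snord22 one of Snhg1. The reads of these small RNAs and those of these hosts are therefore not fully separate. Scarna13 against Snhg10 gave -0.47, Snord17 against Snx5, a sorting nexin, gave -0.62, and Snora74a against Snhg4 gave -0.30.

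Of the hosts, 5 encode ribosomal proteins, and all 5 had lower values in both knockout libraries than in both WT libraries. So did Rcc1, which made 6 of the 10 hosts that are not members, with 0 higher in both. Of all genes tested, 16.5% lay lower and 16.2% higher. Rps2 had 1893 and 1799 CPM in Dnmt3l-KO, against 2418 and 2579 CPM in WT (log2 fold change -0.44 ± 0.12, edgeR, adjusted p = 0.999). Relative to it, Snora64 differed by -0.59, and Snora78, on the opposite strand of the same span, by -0.80. Rps3 had 820.8 and 820.5 CPM in Dnmt3l-KO, against 1026 and 963.9 CPM in WT (log2 fold change -0.28 ± 0.11, edgeR, adjusted p = 0.999). Its ratio differed by -1.16 for Snord15b and -0.32 for Snord15a, and the libraries overlapped in both. Rpl23, the host of Snora21, had 44.9 and 41.9 CPM in Dnmt3l-KO, against 52.9 and 55.4 CPM in WT, a log2 fold change of -0.32 ± 0.10 (edgeR, adjusted p = 0.999). Rpl12, which holds Snora65, and Rpl32, which holds Snora7a, had log2 fold changes of -0.26 ± 0.11 and -0.24 ± 0.13. The 10 hosts that are not members had a median log2 fold change of -0.25, with 3 lower at an unadjusted p under 0.05, where 1.81% of all genes tested were. Snora78 against Snhg9 gave the widest difference, -2.84, which rests on the 7 to 33 counts of Snhg9.

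**Figure D5:**
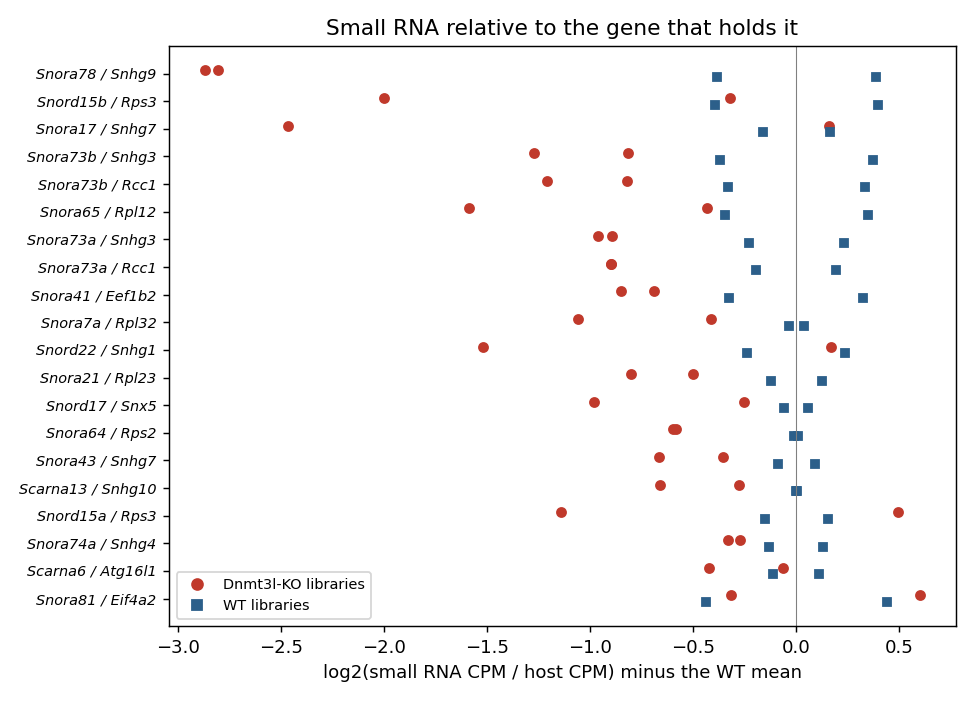
Log2 ratio of small RNA CPM to host CPM in each library, minus the WT mean, for the 20 pairs, with Dnmt3l-KO libraries as circles and WT libraries as squares. In 14 pairs both circles lie left of both squares, and Snora81 with Eif4a2 is the pair whose mean difference is above 0, at 0.14.

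The genes that build and use these particles had median fold changes near 0. None of the 4 H/ACA particle proteins, 5 C/D particle proteins, 17 assembly and trimming factors, 6 Cajal body proteins, 14 nonsense-mediated decay factors or 29 genes of ribosomal RNA transcription and processing passed the adjusted threshold in edgeR. Their median log2 fold changes lay between -0.05 and 0.03. Of the H/ACA proteins, Nop10 had 44.8 and 30.1 CPM in Dnmt3l-KO, against 49.1 and 51.1 CPM in WT (log2 fold change -0.42 ± 0.20), and Gar1 9.68 and 9.62 CPM in Dnmt3l-KO, against 8.11 and 8.24 CPM in WT (0.24 ± 0.13). Dyskerin itself, Dkc1, had 35.1 and 34.7 CPM in Dnmt3l-KO, against 39.2 and 31.3 CPM in WT. For C/D particles, Nhp2l1, the protein that binds the box C/D fold, and Nop58, a core subunit, had log2 fold changes of -0.25 and -0.24. Tcof1, a nucleolar factor for ribosomal RNA synthesis, and Aqr, a helicase that links splicing to snoRNA processing, had 0.32 and 0.21, and Smn1 and Gemin2 of the Cajal body list 0.23 and -0.37. In the decay list Magoh, an exon junction protein, was the 1 gene at an unadjusted p under 0.05 (log2 fold change -0.31, edgeR, adjusted p = 0.999), with Smg9 at 0.29. Among the ribosomal RNA genes Mphosph10 was the 1 gene at that level (-0.30, edgeR, adjusted p = 0.999), with Npm1 at -0.26. In that list 10 of 29 lay lower in both knockout libraries and 0 higher, where 16.5% of all genes tested lay lower and 16.2% higher. In the decay list 2 of 14 lay lower and 5 higher, and in the assembly and trimming list 3 of 17 lower and 4 higher. The counts were 2 lower and 2 higher of 6 in the Cajal body list. They were 1 and 1 of 4 for the H/ACA proteins and 2 and 1 of 5 for the C/D proteins.

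Other short RNAs also had mostly negative fold changes. The table held 28 other structural RNAs, of which 17 were tested and 15 had a negative log2 fold change, with a median of -0.24. Terc, the telomerase RNA, which itself ends in an H/ACA domain, had 5.75 and 4.90 CPM in Dnmt3l-KO, against 9.51 and 8.82 CPM in WT (log2 fold change -0.78 ± 0.17, edgeR, adjusted p = 0.999). Rn7sk had -0.33, Rmrp -0.21 and Rpph1, the RNA of ribonuclease P, -0.05, with overlapping groups in all 3. The U3 copies Rnu3b1, Rnu3b2 and Rnu3b3, box C/D RNAs that are not named Snord, had the same counts within 1 read in each library, so these copies cannot be told apart. Over the 17 other tested genes that span at most 300 bases, the median was -0.24, with 15 negative. Over the 161 that span more than 300 and at most 1000 bases it was -0.23, with 119 negative, where 48.7% of all genes tested were. Both knockout libraries lay below both WT libraries for 5 of the 17 and 56 of the 161 (16.5% of all genes tested), and above for 2 and 12 (16.2%). At an unadjusted p under 0.05 in edgeR, 0 and 23 were lower (1.81%) and 0 and 2 higher (2.34%). The first of these groups shares genes with the structural RNAs, and Rnu3b2 is the median of both, so they are not separate observations. Rn7s1 and Rn7s2, in both groups, also had the same counts in every library, so copies are counted more than once. They were the 2 tested structural RNAs with a positive log2 fold change, 2.18 ± 0.91 each (edgeR, adjusted p = 0.999). Each had 14 and 24 counts in Dnmt3l-KO, against 1 and 7 in WT, and the groups did not overlap. The part of length in the small RNA differences was not tested.

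DESeq2's Wald test on the summed counts called 5 of the 55 members with a count, all lower in Dnmt3l-KO. In that direction it called 0.123% of the 17040 genes with an adjusted p. How many of the 55 had an adjusted p was not counted. Snora73a and Snora73b can exchange reads, so their calls are not separate observations. The 5 called were Snora78 (adjusted p = 3.71e-11), Snora73a (1.29e-05), Snora74a (0.00114), Snora73b (0.00247) and Scarna13 (0.0216). The authors' deposited table, which tests transcripts, called the first 4 of these below WT, against 0.206% of its 28097 transcripts with an adjusted p in that direction and 0.441% in either. In the authors' deposited table Snora78 had a log2 fold change of -1.13 ± 0.20 and an adjusted p of 1.96e-05, Snora73a an adjusted p of 0.00145, Snora73b 0.0233, Snora74a 0.0373 and Scarna13 0.164. Snora78 was also called by edgeR when no filter on low counts was applied (adjusted p = 0.0105).

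Total counts were 51465395 and 40681328 in the Dnmt3l-KO libraries, against 47776612 and 41049869 in the WT libraries. All 8 fibroblast markers were detected, with a summed level of 10372 and 15575 CPM in Dnmt3l-KO, against 12247 and 10815 CPM in WT. The 4 leukocyte markers in the table summed to 3.93 to 4.73 CPM over the libraries, with Ptprc at 8 to 16 counts. Epcam, Cdh1 and Krt8 had at most 9 counts in any library, but Krt18 had 272 and 150 counts in Dnmt3l-KO, against 346 and 232 in WT, and the epithelial list summed to 3.97 to 7.62 CPM. Of the endothelial markers Pecam1 and Cdh5 had at most 12 counts, while Kdr had 873 and 201 counts in Dnmt3l-KO, against 316 and 349 in WT. Of the muscle markers Myod1 and Myog had at most 5 counts, while Des had 1353 and 676 counts in Dnmt3l-KO, against 795 and 704 in WT. The 3 neural markers, Nes, Tubb3 and Sox2, were all present and summed to 140.4 and 107.9 CPM in Dnmt3l-KO, against 152.8 and 110.9 CPM in WT. The part of cell makeup in the small RNA differences was not tested.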

How the data were processed

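RNA from 4 MEF libraries, 2 Dnmt3l-KO and 2 WT, was depleted of ribosomal RNA, fragmented and copied with random primers, per the labels' protocols. The submitters' processing notes name the build mm10 and, without their roles, DESeq2 1.8.0, eXpress 1.4.1, Cufflinks 2.2.1 and TopHat2 2.0.12. How reads shared by copies were assigned is not given in sources used here. The deposited table gives an estimated count and an FPKM value per RefSeq transcript and library, per the file headers. Beside them stand the authors' mean signal, log2 fold change with its error, test score, p-value and adjusted p-value. The estimated counts were whole numbers and needed no rounding.

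Each of the 116415 transcripts carried a symbol. Counts were summed per symbol, and 21138 of the 36846 symbols had a count. The 14760 symbols that passed filterByExpr (a minimum count of 10, here 0.225 CPM, in 2 libraries) were tested as Dnmt3l-KO minus WT with edgeR 4.0.16 in R 4.3.3 (TMM, robust quasi-likelihood F-test, Benjamini-Hochberg adjustment, threshold 0.05) after the fit had been tested on simulated data. A log2 fold change below 0 means lower in Dnmt3l-KO. Lengths and positions come from RefSeq GRCm38.p6, which matched 135 members by accession and 3 by symbol, and sequences and hosts from GENCODE M21. Alternatives used DESeq2 1.42.0 and limma 3.58.1 (voom, or log2 of FPKM plus 1 or 0.1), other scalings, no filter, transcripts in place of symbols, the replicate number as a block, and each library left out.

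Named were, in each class, the 4 members with the smallest unadjusted p and the 3 with the highest mean CPM. Gas5, Snhg1, the hosts of these members and, in each pathway list, the 2 genes with the smallest p were also named. Some of these hosts and pathway genes are given without their library values. Snora21, Snora64, Snora81, Snhg8, Snhg11, Snora7a, Snora17 and Snora15 were added after their values were seen. So were Snora68, Scarna3b, Dkc1, Rn7sk, Rmrp, Rpph1 and the U3 copies. The members and lists were chosen with earlier results of these data known.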

Additional observations from a re-analysis of the deposited data

How the results depend on the processing

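Over 14 alternative settings the 35 tested members gave 469 values with the direction and call of the main fit, 6 that passed the threshold only in the alternative and 14 with the opposite sign, and 27 members changed sign in none. No member was called in edgeR; DESeq2's Wald test called 5 and edgeR without a filter 1. Of all symbols, 3 were called, against 31 by DESeq2, 9 and 6 by limma on log2 FPKM with 0.1 and 1 added, 8 without a filter, 1 with transcripts as features, and 2 to 6 with a library left out. The pathway genes called stayed at 0 in every setting run. The H/ACA median of -0.97 was -0.69 on log2(FPKM + 1) and -1.03 to -0.73 with a library left out, and the log2 ratio of H/ACA sums of -1.05 was -0.70 without Snora73a and Snora73b and -1.27 to -0.80 with a library left out. With a library left out the C/D median ran from -1.43 to -0.45, the C/D sum from -1.12 to -0.45 and the host sum from -0.36 to -0.11. The cause of these shifts was not tested. Snora15, at 0 in a WT library, turned positive on log2 FPKM (1.39 with 0.1 and 0.18 with 1 added), in voom (1.60), and under the replicate block (0.21), and ran from -1.45 to 6.46 with a library left out. The other sign changes came only with a library left out, over which the log2 fold change ran from -0.67 to 0.58 for Snora81, -0.092 to 0.30 for Snhg14, -0.38 to 0.11 for Snhg10, -1.43 to 0.20 for Snord15a, -0.44 to 0.072 for Snhg12, -0.17 to 0.023 for Snhg18 and -0.44 to 0.026 for Snhg6. Leaving out a library leaves 1 sample in a genotype, assumed to vary like the other.

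The replicate numbers are shared by the genotypes, but they were not taken to pair the libraries. There were only 2 pairs, and the correlation between their deviations over 14760 genes was 0.0999. That value does not speak for the members alone. Of the 19 tested small RNAs with a count in every library, 16 were lower in the second library in Dnmt3l-KO and 14 in WT. With the replicate number as a block 0 members and 4 symbols were called, and the medians were -0.97 for H/ACA, -0.87 for C/D and -0.18 for the hosts. Depth limits the members with few counts most.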
